A study of Mus musculus with 16 samples.

Results

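Vitamin B12 (cobalamin) enters kidney cells bound to carrier proteins that are taken up by receptors, and 6 genes of that route are described here: Cubn, Amn, Lrp2, Dab2, Tcn2 and Cd320. They were taken by gene symbol from a table of 57186 genes, in which each of the 6 symbols had 1 row, and all 6 passed the filter of at least 100 counts over all libraries that left 25408 genes for testing. RNA had been sequenced from the kidneys of 16 male mice on a C57BL/6J background, 4 mice in each of 4 groups. Every mouse, the controls included, carried Elmo1H/H, an allele pair that raises expression of Elmo1. Mice of the group ND_C were non-diabetic (Elmo1H/HIns2+/+) and received no B12. Mice of the group D_C were diabetic through 1 Ins2Akita allele (Elmo1H/HIns2Akita/+), whose misfolded proinsulin damages the insulin-producing beta cells of the pancreas, and also received no B12. The groups ND_B12 and D_B12 had the same genotypes and received B12 at 10 mg per kg body weight per day in drinking water from 8 weeks of age. The methods give kidneys collected at 16 weeks of age, between ZT7 and ZT9 (hours after lights on), which makes 8 weeks of treatment, whereas the sample labels give 16 weeks of treatment.

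In blood, cobalamin that cells can use is carried by transcobalamin, the product of Tcn2, and most cell types take up the loaded carrier through the receptor CD320. Transcobalamin is small enough to pass the glomerular filter, and cells of the proximal tubule recover it from the filtrate through megalin, the product of Lrp2, a very large receptor of the LDL receptor family. Cubilin, the product of Cubn, has no membrane-spanning part of its own and is held at the cell surface and brought there by amnionless, the product of Amn. The pair takes up intrinsic factor with its cobalamin in the ileum and, together with megalin, albumin and other filtered proteins in the kidney. Dab2 encodes an adaptor that binds the cytoplasmic tail of megalin and links it to clathrin-coated pits.

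In the GRCm39 assembly, Cubn lies on chromosome 2 from 13281149 to 13496624 and Lrp2 on the same chromosome from 69254682 to 69416409, both on the minus strand. Tcn2 lies on chromosome 11 from 3866490 to 3882378 on the minus strand. The 3 plus-strand genes are Amn on chromosome 12 from 111237524 to 111244001, Dab2 on chromosome 15 from 6329269 to 6470196, and Cd320 on chromosome 17 from 34062059 to 34083496. Lrp2 and Tcn2 overlap no other annotated gene. Predicted genes overlap the others, all on the opposite strand except Gm63092, which lies on the strand of Dab2 and was not among the genes tested. Overlaps were read from a later GENCODE release than the one behind the counts. The aligner took the strand of a spliced read from its intron motif, and a stranded setting for the counting is not given in the sources used here. The overlapping genes that passed the filter were far below their partners, with mean normalized counts of 162 for Gm13270 in Cubn and of 215 for Gm16311 and 44.8 for Gm18888 in Dab2.

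At 2 places the annotated transcripts of these genes part in a way that the transcript counts below refer to, and the sequences around them are given 5′ to 3′ in the direction of the gene. In Tcn2, exon 2 can begin after either of a pair of adjacent acceptors, 3 bases apart and both in the 5′ untranslated region, so that the choice leaves the protein unchanged; capitals mark the pair, chr11:3881578-3881607, minus strand. In Dab2, an alternative coding exon of 654 bp, or 218 whole codons, separates the long protein form, which binds clathrin and its adaptors, from the short form; capitals mark the intron's last 2 and first 2 bases beside that exon, chr15:6458757-6458786 and chr15:6459421-6459450, plus strand.
Tcn2 exon 2 acceptors: ctttctctctgctgattTAGCAGcgtgctt
Dab2 alternative exon, acceptor: ttttcccccaaatgtgctAGgaaagcaaag
Dab2 alternative exon, donor: gactgctaagGTgaattgtcttttccgcat

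The labels and the study's own tabulated group means disagree about which library belongs to which group. Each tabulated mean matched, almost exactly, the mean of a set of libraries other than the labelled one. By those sets 5 libraries kept their labelled group and 11 lay in another, of which 2, the libraries labelled D_C 1 and ND_B12 4, lay in the other genotype. The set tabulated as the diabetic controls was the libraries labelled D_B12, and non-diabetic libraries changed places between the treatments too, so the direction of any B12 difference, in either genotype, rests on the labels. Groups here are those of the labels throughout, and the differences of the members and counts of the lists between genotypes are also given without those 2 libraries, for the lists as an alternative chosen after seeing the data. The date in the library name, whose meaning is not stated, was nearly nested in genotype: non-diabetic libraries fell on days 0 to 21 and diabetic ones on days 21 to 111. Each library held between 65271308 and 91771136 counts. The D_C libraries, from 85751266 to 91771136 counts, were all deeper than every non-diabetic library, of which the deepest held 84763426. The correlation of log2 CPM between libraries was 0.972 to 0.985 over 120 pairs, and Elmo1, raised in all groups, ranged from 286 to 497 normalized counts. Kidney was recognizable in every library from markers of the proximal tubule (Slc34a1), thick ascending limb (Umod) and collecting duct (Aqp2), all of which were tested.

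The members spanned a wide range of levels in the kidney. On a length-corrected scale (TPM, computed from the transcript counts and set to the same total in each library), Tcn2 was the most abundant, with a median over 16 libraries of 717 TPM and a range of 552 to 805. Lrp2 followed at 478 TPM (389 to 591), Dab2 at 199 TPM (141 to 248) and Cubn at 141 TPM (103 to 183). Amn stood at 51.6 TPM (45.8 to 65.7) and Cd320 at 8.71 TPM (6.85 to 11.9). This order held in 15 of 16 libraries, and in D_C 3 Lrp2 was above Tcn2 and Cubn above Dab2. The ranges of Tcn2 and Lrp2, and those of Dab2 and Cubn, overlapped, whereas each other pair of neighbours in the order was separated in all libraries. Tcn2 ranked between 83 and 105 and Lrp2 between 97 and 165 among 56641 genes by TPM, and Cd320 between 6874 and 9155. Within single libraries, TPM of Cubn was 2.02 to 3.35 times that of its membrane anchor Amn, TPM of Lrp2 was 2.75 to 3.87 times that of Cubn, and TPM of the carrier Tcn2 was 51.5 to 94.0 times that of its receptor Cd320.

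**Figure D1:**
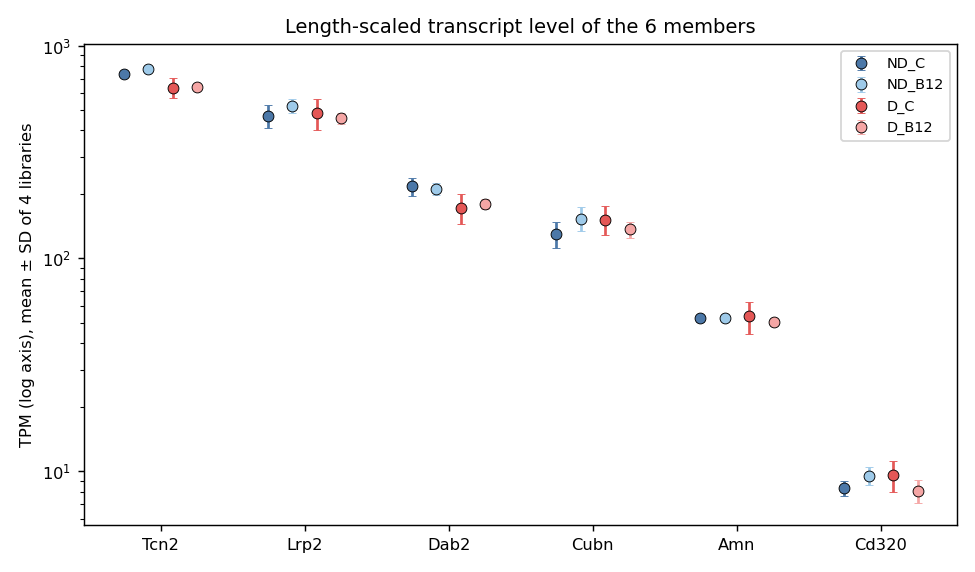
Level of the 6 members in TPM on a log axis, one point for each labelled group (mean ± SD of 4 libraries). Medians over all libraries fall from 717 TPM for Tcn2 to 8.71 TPM for Cd320, and the Tcn2 and Dab2 points of the diabetic groups lie below those of the non-diabetic groups.

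The question whether diabetes was accompanied by another level of these genes was asked separately without B12, with B12 and on average over both. Tcn2, the plasma carrier of cobalamin, was lower in the diabetic kidneys in all 3 comparisons and Dab2, the adaptor of megalin, on average over both treatments. The other 4 genes, which encode the receptors and the anchor of cubilin, did not pass the test in any of the 3. Values below are normalized counts, that is deposited counts divided by a size factor for each library, and fold changes are on the log2 scale from edgeR's quasi-likelihood test, with p-values adjusted over all genes tested.

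Tcn2 had normalized counts of 95300, 101082, 106029 and 100829 in the ND_C libraries and of 106092, 102436, 106737 and 105080 in the ND_B12 libraries. In the diabetic kidneys it had 86788, 81188, 80640 and 79515 in D_C and 78548, 87289, 84891 and 87702 in D_B12. By the labels, all 8 non-diabetic libraries were thus above all 8 diabetic ones, a separation in this direction that 0.331% of the genes tested showed. In the tabulated sets D_C 1 (86788) lay with the non-diabetic and ND_B12 4 (105080) with the diabetic libraries. With those places exchanged the genotypes overlap. Without B12, Tcn2 fell by 18.6%, from 100810 ± 4385 to 82033 ± 3246 (SD, n = 4; log2 fold change -0.30, SE 0.056, edgeR adjusted p = 0.0300). With B12, it fell by 19.7%, from 105086 ± 1894 to 84607 ± 4226 (SD, n = 4; log2 fold change -0.32, SE 0.056, edgeR adjusted p = 0.0290). The average over both treatments was -0.31 (SE 0.040, edgeR adjusted p = 0.00484), and the genotype difference with B12 minus that without was -0.02 (log2, SE 0.080, edgeR adjusted p = 0.942), with a 95% interval of -0.19 to 0.16. The exact permutation test gave p = 0.000408 for the average, permuting genotype within treatment, and p = 0.0286 within each treatment, in both cases the smallest p that these group sizes allow.

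Tcn2 was 1 of 6 members to pass in each single comparison, where 1.66% of all genes tested passed without B12 (0.728% as lower) and 0.823% with B12 (0.563% as lower). It was 1 of 2 members to pass on average, where 3.02% of all genes passed, 2.16% lower and 0.862% higher. The median log2 fold change of the 6 members in that average was -0.11, against 0.0072 over all genes tested. Without the libraries labelled D_C 1 and ND_B12 4, where 10.2% of all genes passed, the average was -0.32 (edgeR adjusted p = 0.0003). Its size was much the same with the label date as a covariate, at -0.32, but the adjusted p was then 0.212, and no member passed in that fit. On 28 August, the only date that holds both genotypes, D_C 1 stood at 86788 against 102436 to 106737 in ND_B12 2, 3 and 4. That comparison uses both libraries whose genotype is in doubt: by the tabulated sets the diabetic library of that date would be ND_B12 4, at 105080. The call in single comparisons was less firm than the average, which passed whichever library was left out. Without B12 it was lost on leaving out ND_C 2, ND_C 3, D_C 2, D_C 3 or D_C 4 (edgeR adjusted p = 0.0568 to 0.104) and in a fit of the compared groups alone (edgeR adjusted p = 0.0848). With B12 it was lost on leaving out ND_C 2, ND_B12 2, ND_B12 3 or any 1 of the D_B12 libraries (edgeR adjusted p = 0.0515 to 0.114) and with upper-quartile normalization (edgeR adjusted p = 0.0612).

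**Figure D2:**
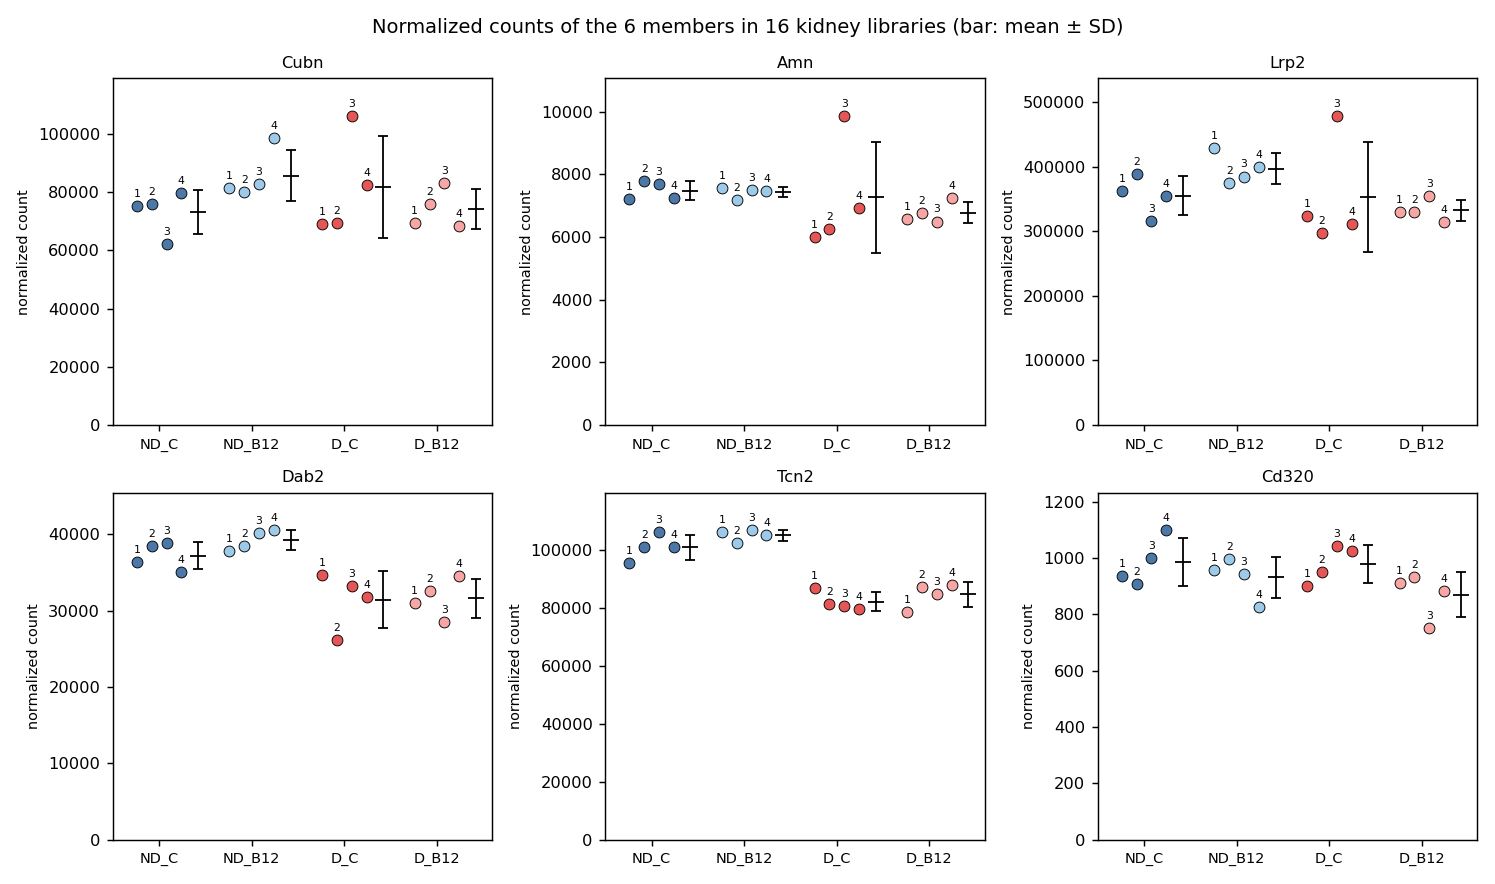
Normalized counts of each member in every library (points, numbered by replicate; vertical axes start at 0) by labelled group, with mean ± SD beside them. Tcn2 and Dab2 show diabetic libraries below all non-diabetic ones, and D_C 3 stands above the rest of its group in Cubn, Amn and Lrp2.

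Dab2 had normalized counts of 36430, 38475, 38905 and 35066 in ND_C and of 37859, 38481, 40167 and 40548 in ND_B12. Its counts were 34721, 26106, 33203 and 31753 in D_C and 31010, 32560, 28508 and 34557 in D_B12. By the labels, all 8 diabetic libraries were again below all 8 non-diabetic ones, as in 0.331% of all genes (4.58% without B12 and 6.57% with B12 taken singly), although the lowest non-diabetic library (ND_C 4) and the highest diabetic one (D_C 1) were close. With D_C 1 (34721) and ND_B12 4 (40548) exchanged, as in the tabulated sets, the genotypes overlap. Group means without B12 were 37219 ± 1796 in non-diabetic and 31446 ± 3760 in diabetic kidneys (SD, n = 4), and those with B12 were 39264 ± 1298 and 31659 ± 2554. On average over both treatments Dab2 fell by 17.6% (log2 fold change -0.28, SE 0.057, edgeR adjusted p = 0.0200; exact permutation p = 0.000408). The single comparisons did not pass, with -0.24 without B12 (SE 0.080, edgeR adjusted p = 0.117) and -0.31 with B12 (SE 0.080, edgeR adjusted p = 0.0718). Without D_C 1 and ND_B12 4 the average was -0.29 (edgeR adjusted p = 0.0062), in a fit where 10.2% of all genes passed on average. The comparison without B12 then passed at an edgeR adjusted p of 0.0396, as did 8.57% of all genes. The average was lost without D_B12 1 (edgeR adjusted p = 0.0520) and in the fit that adds the label date (-0.33, edgeR adjusted p = 0.346). DESeq2 called Dab2 in both single comparisons (DESeq2 adjusted p = 0.0482 and 0.0105), where it called 1637 and 1189 of 25408 genes.

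Of 17 markers of the proximal tubule, the segment in which megalin, cubilin and Dab2 work, 5 passed the edgeR test as lower in the diabetic kidneys on average, 0 passed as higher and 12 did not pass, where 2.16% of all genes passed as lower. Among the 5 were the phosphate transporter Slc34a1 (log2 fold change -0.25, SE 0.048) and Miox, which breaks down inositol (-0.52, SE 0.091). Among the 12, the bicarbonate transporter Slc4a4 stood at 0.05 (SE 0.079), Gatm, which makes a precursor of creatine, at 0.00 (SE 0.12) and the organic anion transporter Slc22a6 at 0.00 (SE 0.059). Others of the 12 were lower without passing, such as Slc7a13 at -0.44 (SE 0.16) and Slc22a8 at -0.37 (SE 0.11). Over all 17 markers, 14 fold changes were below 0 and 3 above, with a median of -0.17. Without D_C 1 and ND_B12 4, 7 of the 17 passed as lower and 0 as higher, where 5.34% of all genes passed as lower. Their summed CPM was 30569 to 37431 in the non-diabetic and 24127 to 30301 in the diabetic libraries, a log2 difference of -0.32. An androgen-regulated transcript, Kap, made up 30.7% to 48.6% of that sum in the non-diabetic libraries. Without Kap the sum was 17988 to 21180 against 16303 to 17688, a log2 difference of -0.20. Without the 2 doubted libraries the log2 differences were -0.37 with Kap and -0.18 without it. Tcn2 amounted to 3.44% to 4.34% of the full marker sum in non-diabetic and 3.46% to 4.21% in diabetic libraries (log2 difference 0.01), and to 6.26% to 6.89% and 5.81% to 6.41% of the sum without Kap (log2 difference -0.11). For Dab2 the corresponding log2 differences were 0.04 and -0.09, and for Lrp2 they were 0.17 and 0.05. The other members had 0.29 and 0.16 (Cubn), 0.22 and 0.09 (Amn), and 0.27 and 0.14 (Cd320). The part of the marker difference in the change of Tcn2 and Dab2 was not tested, and in RNA from a whole tissue fewer cells of a type and less RNA per cell cannot be told apart. In other lists 1 of 6 collecting duct markers passed as higher (summed CPM 280 to 482 in non-diabetic and 344 to 647 in diabetic libraries) and 2 of 7 macrophage markers as lower (58.5 to 95.1 and 56.4 to 80.7). None of the 6 thick ascending limb and distal convoluted tubule, 5 podocyte, 6 endothelial, 6 fibroblast and mural cell, 7 B and T cell, 4 adipocyte or 2 tested adrenal markers passed edgeR's test on average, with 2, 1, 2, 2, 3, 0 and 0 of them at an unadjusted p below 0.05, as had 19.4% of all genes. Without D_C 1 and ND_B12 4, 10.2% of all genes passed. In that fit 3 collecting duct, 1 podocyte, 2 endothelial and 1 fibroblast and mural cell markers passed as higher. As lower there were 5 macrophage and 2 B and T cell markers. Of the thick ascending limb and distal convoluted tubule markers 1 passed as higher and 2 as lower, and no adipocyte or adrenal marker passed. Collecting duct sums were then 280 to 386 CPM in non-diabetic and 344 to 647 in diabetic libraries. Macrophage sums were 80.2 to 95.1 and 56.4 to 78.5, with no overlap.

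**Figure D3:**
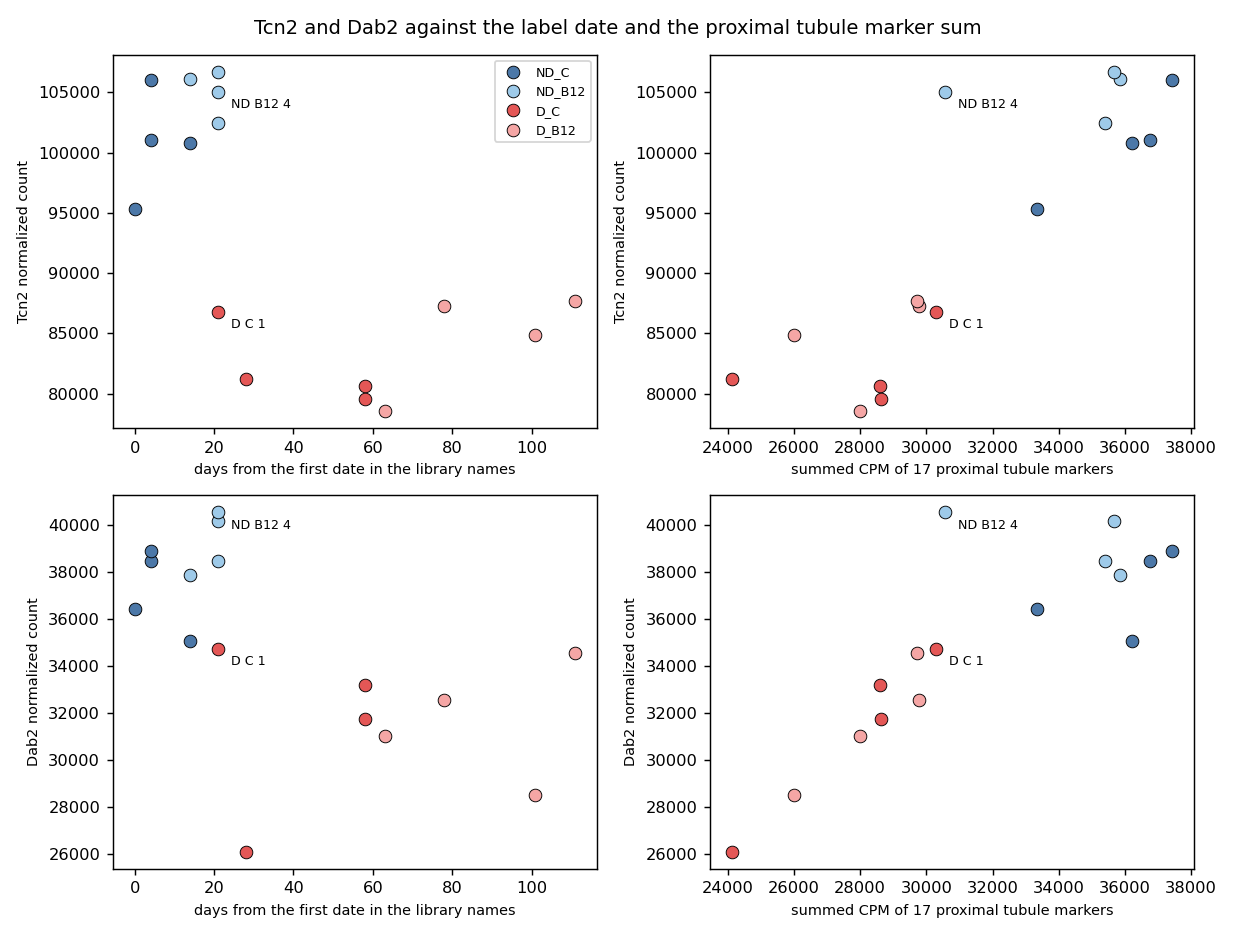
Normalized counts of Tcn2 and Dab2 in each library against the days from the first date in the library names (left) and against the summed CPM of 17 proximal tubule markers (right), coloured by labelled group; the vertical axes do not start at 0. Both genes separate the labelled genotypes, and only day 21 holds both genotypes. On the vertical axes D_C 1 lies with the diabetic and ND_B12 4 with the non-diabetic libraries, D_C 1 as the highest diabetic library in Dab2. On the marker axis these libraries are neighbours, D_C 1 at 30301 and ND_B12 4 at 30569 CPM.

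The receptors themselves differed less between genotypes than between some libraries of 1 group. Lrp2 (megalin) had normalized counts of 361791, 388345, 315799 and 354569 in ND_C and of 428871, 374359, 384577 and 399229 in ND_B12. In the diabetic kidneys it had 322928, 296866, 478938 and 310513 in D_C and 329987, 330092, 353773 and 314046 in D_B12. The library D_C 3 was above every other library of the study, and 0.63 above the mean of the other D_C libraries on the log2 scale. With B12, all 4 diabetic libraries were below all 4 non-diabetic ones, from 396759 ± 23717 to 331975 ± 16371 (SD, n = 4; log2 fold change -0.26, SE 0.13, edgeR adjusted p = 0.305; exact permutation p = 0.0286), as were 6.57% of all genes tested. The corresponding value without B12 was -0.01 (SE 0.12, edgeR adjusted p = 0.977), and on average it was -0.14 (SE 0.088, edgeR adjusted p = 0.433), with a 95% interval of -0.33 to 0.06. Without D_C 1 and ND_B12 4 the average was -0.11 (edgeR adjusted p = 0.521).

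Cubn (cubilin) had normalized counts of 75114, 75830, 62262 and 79909 in ND_C and of 81385, 80117, 82892 and 98614 in ND_B12. Its counts were 69194, 69363, 106382 and 82370 in D_C and 69314, 75824, 83343 and 68351 in D_B12. Here too D_C 3 was the highest library, and the genotypes overlapped under both treatments. Between genotypes it differed by 0.16 without B12 (log2, SE 0.13, edgeR adjusted p = 0.553) and -0.21 with B12 (SE 0.13, edgeR adjusted p = 0.423). On average it was -0.03 (SE 0.090, edgeR adjusted p = 0.916), with a 95% interval of -0.22 to 0.17, and without D_C 1 and ND_B12 4 it was 0.049 (edgeR adjusted p = 0.790).

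Amn (amnionless) had normalized counts of 7209, 7780, 7692 and 7243 in ND_C and of 7563, 7181, 7502 and 7482 in ND_B12. The diabetic libraries had 6013, 6245, 9877 and 6916 in D_C and 6583, 6777, 6494 and 7259 in D_B12. Apart from D_C 3, which was the highest of all, 6 of the other 7 diabetic libraries were below every non-diabetic one. Averaged over treatments the difference was -0.09 (log2, SE 0.080, edgeR adjusted p = 0.589), with a 95% interval of -0.26 to 0.09, and without D_C 1 and ND_B12 4 it was -0.046 (edgeR adjusted p = 0.789). The library D_C 3 decided this value and that of Lrp2. Without it the averages were -0.18 for Amn (edgeR adjusted p = 0.0396) and -0.22 for Lrp2 (edgeR adjusted p = 0.0492), and both then passed. Of 16 fits that each left out 1 library, this was the only one in which either average passed. The share of all genes passing in that fit is not given here, so these calls are not read as a result about the 2 genes. Members of the complex were positively correlated over the libraries, with a Pearson correlation of log2 CPM over 16 libraries of 0.79 between Cubn and Lrp2, 0.77 between Amn and Lrp2 and 0.59 between Cubn and Amn, in all of which D_C 3 takes part. Other genes followed Cubn more closely. Among 15355 genes with a mean of at least 100 normalized counts and the other members, Lrp2 ranked 37 and Amn 779 by correlation with Cubn. By correlation with Lrp2, Cubn ranked 11 and Amn 19, and by correlation with Amn, Lrp2 ranked 75 and Cubn 630. Tcn2 and Dab2 correlated at 0.85, and Tcn2 with Lrp2 at 0.37, over libraries that also share their group.

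Cd320, the transcobalamin receptor of most cells, was the least abundant member. It had normalized counts of 934, 906, 998 and 1098 in ND_C and of 957, 996, 944 and 826 in ND_B12. In the diabetic kidneys they were 900, 949, 1043 and 1026 in D_C and 911, 931, 752 and 884 in D_B12. The groups overlapped in each comparison between genotypes, and averaged over treatments diabetic kidneys differed by -0.05 (log2, SE 0.062, edgeR adjusted p = 0.691), with a 95% interval of -0.19 to 0.08, and without D_C 1 and ND_B12 4 they differed by -0.059 (edgeR adjusted p = 0.616).

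**Figure D4:**
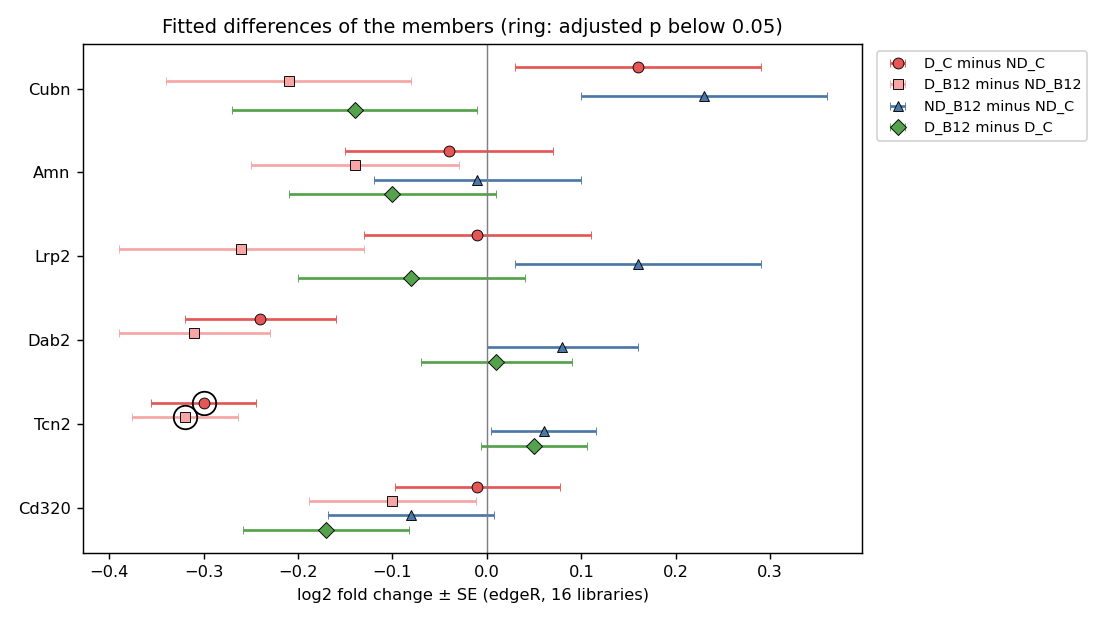
Fitted log2 fold changes of the 6 members (horizontal axis, ± SE) for 2 comparisons between genotypes and 2 between treatments; rings mark an edgeR adjusted p below 0.05. Only Tcn2 is ringed, at -0.30 without B12 and -0.32 with B12, and no member is ringed for B12.

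Whether B12 in the drinking water was accompanied by a change in the genes that take it up was asked in non-diabetic kidneys, in diabetic kidneys and on average. No member passed in any of the 3 comparisons or in the test of the difference between genotypes, and 0 of 6 had an unadjusted p below 0.05 in any of the 4. Among all genes tested, edgeR called 0 (0.0%) in each of the 4, while 7.62% had an unadjusted p below 0.05 in non-diabetic kidneys, 13.6% in diabetic kidneys, 5.2% on average and 16.1% for the difference. DESeq2 called 6, 670, 6 and 943 genes in the same order, none of them a member.

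In non-diabetic kidneys the 4 treated libraries were above the 4 untreated ones in Cubn, from 73279 ± 7642 to 85752 ± 8650 normalized counts (SD, n = 4; log2 fold change 0.23, SE 0.13, edgeR adjusted p = 0.704; exact permutation p = 0.0286), a separation that 2.65% of genes showed in this direction. The gap was narrow, between 79909 in ND_C 4 and 80117 in ND_B12 2, and without D_C 1 and ND_B12 4 the fold change was 0.15 (edgeR adjusted p = 0.996). In the tabulated sets ND_B12 1 (81385) lay with the untreated libraries and ND_C 3 (62262) with the treated ones, and with those places exchanged the groups overlap. In diabetic kidneys Cubn was at 81827 ± 17495 without and 74208 ± 6936 with B12 (SD, n = 4; log2 fold change -0.14, SE 0.13, edgeR adjusted p = 0.689). The difference between those fold changes was -0.37 (SE 0.18, edgeR adjusted p = 0.330), with a 95% interval of -0.76 to 0.02, and it ranged from -0.43 to -0.20 on leaving out single libraries. The average fold change of Cd320 with B12 was -0.12 (SE 0.062, edgeR adjusted p = 0.970), with a 95% interval of -0.26 to 0.01. Its mean was 984 ± 85.4 without and 931 ± 73.3 with B12 in non-diabetic kidneys (SD, n = 4), and 979 ± 67.2 and 870 ± 80.7 in diabetic ones, with overlapping groups. For the others the 95% interval of the average fold change ran from -0.15 to 0.24 for Cubn, from -0.23 to 0.12 for Amn and from -0.15 to 0.23 for Lrp2. It was narrower for Dab2, from -0.08 to 0.17, and for Tcn2, from -0.03 to 0.14.

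Genes that act with these members were examined as 4 lists, whose counts stand against the 3.02% of all genes that passed on average over treatments. Of 21 tested endocytic partners of megalin and cubilin, 1 passed, a share near that background: Lrpap1, the chaperone that keeps megalin from binding ligands early in the secretory route, fell by 0.20 on the log2 scale (SE 0.046, edgeR adjusted p = 0.0293), from 26656 ± 1420 to 22669 ± 1126 normalized counts without B12 (SD, n = 4). At the ends of that list stood Rab38, a small GTPase of vesicle traffic, at -0.30 (SE 0.14, edgeR adjusted p = 0.255), Ehd3, a regulator of endosomal recycling, at 0.12 (SE 0.074, edgeR adjusted p = 0.423), and the proton pump subunit Atp6v0a4 at 0.11 (SE 0.075, edgeR adjusted p = 0.461), none of which passed. The median of the list was 0.029, near the 0.0072 of all genes. Clathrin, AP-2 subunits, Rab5a, Rab11a and the chloride exchanger Clcn5 were among the 20 that did not pass.

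Among 9 tested ligands of megalin or cubilin and other binders, 2 passed as lower and 0 as higher on average. Folr1, the folate receptor of the proximal tubule, fell by 0.22 on the log2 scale (SE 0.038, edgeR adjusted p = 0.0121), and it also passed with B12 (-0.26, SE 0.054, edgeR adjusted p = 0.0418). B2m, the light chain of MHC class I and a filtered ligand of megalin, fell by 0.36 (SE 0.083, edgeR adjusted p = 0.0337). The vitamin D carrier Gc (0.53, SE 0.26, edgeR adjusted p = 0.272) and Ambp (0.44, SE 0.29, edgeR adjusted p = 0.431) had the highest values and did not pass. The gene for intrinsic factor, Cblif, was listed but did not pass the filter on counts.

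Of 10 tested relatives of megalin in the LDL receptor family, 1 passed. Lrp1, a broadly expressed endocytic receptor, rose by 0.32 on average (SE 0.070, edgeR adjusted p = 0.0265) and by 0.42 without B12 (SE 0.10, edgeR adjusted p = 0.0469), from 10002 ± 825 to 13376 ± 1593 normalized counts (SD, n = 4). Lrp5 stood at 0.18 (SE 0.068, edgeR adjusted p = 0.154), Lrp8 at -0.46 (SE 0.19, edgeR adjusted p = 0.191) and Lrp12 at -0.54 (SE 0.15, edgeR adjusted p = 0.0642), which did not pass. Of 12 genes that process cobalamin inside the cell or use it, 0 passed edgeR's test on average, with 6 at an unadjusted p below 0.05, as had 19.4% of all genes. The closest were Clybl, which clears citramalyl-CoA (-0.15, SE 0.041, edgeR adjusted p = 0.0510), Abcc1, which exports cobalamin (0.24, SE 0.069, edgeR adjusted p = 0.0675), and methylmalonyl-CoA mutase, Mmut (-0.22, SE 0.062, edgeR adjusted p = 0.0685). Abcc1 alone of the 12 passed without B12, where it rose by 0.40 (SE 0.097, edgeR adjusted p = 0.0492). In the 3 comparisons of B12 and the difference between genotypes, 0 genes of the 4 lists passed edgeR's test.

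Without D_C 1 and ND_B12 4, 10.2% of all genes passed edgeR's test on average between genotypes. Of the 21 endocytic partners 3 then passed: Lrpap1 at -0.22 (log2, SE 0.048), Atp6v0a4 at 0.20 (SE 0.044) and Gipc1, an adaptor that binds the tail of megalin, at 0.18 (SE 0.044). The ligands and binders that passed were 2 of 9, Folr1 at -0.21 (SE 0.040) and B2m at -0.40 (SE 0.086). Of the LDL receptor family 4 of 10 passed, Lrp1 at 0.39 (SE 0.065) and Lrp5 at 0.26 (SE 0.057) as higher and Lrp8 at -0.71 (SE 0.14) and Lrp12 at -0.57 (SE 0.17) as lower. Of the 12 genes that process or use cobalamin 1 passed, Abcc1 at 0.27 (SE 0.065), which without B12 stood at 0.48 (SE 0.091).

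The genes most like each member over the 16 libraries were found among 15355 genes with a mean of at least 100 normalized counts, by Pearson correlation of log2 CPM. For Tcn2 they were Spcs1 (0.954), Timd2 (0.946) and the phosphate transporter Slc34a1 (0.942), and for Dab2 they included Isoc2a (0.940). All 4 of these passed edgeR's test as lower in the diabetic kidneys on average, from -0.20 for Spcs1 to -0.53 for Timd2. Each was chosen for following a gene that separates the labelled genotypes, so these calls largely follow from the choice. For Lrp2 they were Myo7b (0.845), Ddx23 (0.829) and Otud5 (0.818), for Cubn Nbr1 (0.878), Marchf6 (0.873) and Polr2a (0.866), and for Amn Aamp (0.939), Apeh (0.920) and Tmem238 (0.898). For Cd320 they were Chrdl1 (0.826), Tspo (0.812) and Apobec2 (0.789). None of these 12 passed edgeR's test on average. Points in these correlations share group, date and library composition, so they describe the libraries.

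The transcript table listed 35 transcripts of the members, of which 32 passed the filter. A single transcript held nearly all of the TPM of Cubn (Cubn-201, 97.1% to 99.2%), Lrp2 (Lrp2-201, 95.1% to 98.7%) and Amn (Amn-201, 93.1% to 99.6%). Tcn2 was divided mainly between Tcn2-203, which uses the upstream acceptor shown above (median 55.4%, range 46.5% to 61.4%), and Tcn2-201, which uses the downstream one (27.0%, 22.9% to 31.5%). Over all Tcn2 transcripts that use either acceptor, the upstream one took 66.0% to 75.5% of TPM, with a median of 70.3%, and the 4 groups overlapped. The protein-coding Cd320-201 ranged from 20.7% to 94.6% of the TPM of Cd320 and the intron-retaining Cd320-204 from 0 to 77.8%, so that the makeup of this weakly expressed gene varied widely between libraries.

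Dab2 was the member whose transcripts were most divided among those with high counts. Transcripts with the alternative coding exon, Dab2-202, Dab2-204 and Dab2-214, made up 29.3%, 60.9%, 58.9% and 60.5% of the TPM that could hold it in ND_C and 71.6%, 66.7%, 77.5% and 61.5% in ND_B12. The share was 68.9%, 75.8%, 79.6% and 79.7% in D_C and 74.7%, 63.8%, 44.1% and 69.0% in D_B12. The highest ND_C share (60.9%) was just under the lowest ND_B12 share (61.5%), D_B12 spanned both, and ND_C 3 (58.9%) and ND_B12 1 (71.6%) change places in the tabulated sets. These shares are estimates from an assembler's division of reads between transcripts and are described here with no test. In single transcripts edgeR called 0 of 32 member transcripts, and 0 of 66503 transcripts (0.0%) in any of the 7 comparisons, with 10.2% at an unadjusted p below 0.05 in the average between genotypes. The lowest adjusted p among the members was that of Tcn2-203, at 0.0869 on average over treatments (log2 fold change -0.35, SE 0.062). Without D_C 1 and ND_B12 4 that transcript passed (-0.36, SE 0.070, edgeR adjusted p = 0.0474), in a fit that called 446 of 64127 transcripts.

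**Figure D5:**
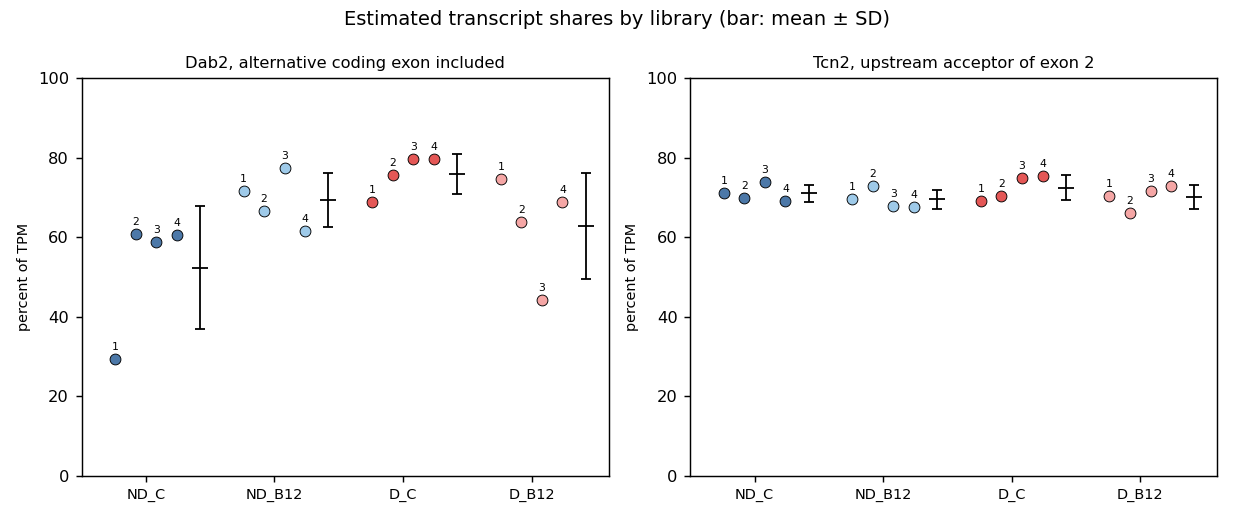
Share of TPM in percent, by library (points, numbered by replicate) and labelled group with mean ± SD, of Dab2 transcripts that include the alternative coding exon (left) and of Tcn2 transcripts that use the upstream acceptor of exon 2 (right). The Dab2 share runs from 29.3% in ND_C 1 to 79.7% in D_C 4, and the Tcn2 share stays between 66.0% and 75.5%.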

How the data were processed

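The authors isolated total RNA from kidney (RNeasy), prepared Watchmaker Total RNA libraries and sequenced paired reads of 50 bp. Per the labels and methods, reads were aligned with STAR to GRCm39 with GENCODE annotation and quantified with StringTie. The 2 deposited tables hold the authors' estimated counts per gene and per transcript, as whole numbers and not normalized; how StringTie divides reads between transcripts affects the transcript values most. Columns were tied to samples by the library number that ends each library name.

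The 6 members and all gene lists were chosen with earlier results of these data known. The main test was edgeR 4.0.16 quasi-likelihood with TMM on all 16 libraries, 1 mean per group, at least 100 counts over all libraries, 12 degrees of freedom left for the spread, and p-values adjusted by Benjamini-Hochberg over every gene tested, with a threshold of 0.05 (R 4.3.3). The script was tested on simulated counts, where few of the changes put into transcript counts were recovered, so the absence of transcript calls says little. Normalized counts used median-of-ratios factors and log2 CPM a prior count of 2. TPM used annotated lengths, found for 99.9% of transcripts. Single values were compared by two-sided exact permutation tests. Named genes were the members, the 3 most correlated genes of each and, in each pathway list, the 2 lowest and 2 highest average fold changes between genotypes; some genes that this rule names are not reported here, and others were named after their values were seen. Alternatives were DESeq2 1.42.0, other normalizations and filters, the label date, the replicate number, compared groups alone and libraries left out. The marker sum without Kap and the lists without D_C 1 and ND_B12 4 were added after seeing the data. Libraries held 65271308 to 91771136 counts in all, and Cd320, the least abundant member, 728 to 1194 in single libraries. Counting error was not compared with the spread between mice.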

Additional observations from a re-analysis of the deposited data

Results flagged for a closer look

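In each group of 4 libraries, the members' counts, the transcript shares and the marker sums were searched for a library whose gap to its nearest neighbour exceeded Dixon's 95% limit. In 76 such searches 5 values were found, where chance flags about 1 in 20 groups. Cubn stood at 98614 normalized counts in ND_B12 4, against 80117 to 82892 in the other libraries of its group. Lrp2 stood at 478938 normalized counts in D_C 3, against 296866 to 322928 in the others. The share of Dab2 TPM with the alternative exon was 29.3% in ND_C 1, against 58.9% to 60.9%. The proximal tubule marker sum was 30569 CPM in ND_B12 4, the lowest of the non-diabetic libraries. Its Dab2 count was the highest of those libraries, and its Tcn2 count, 105080, lay within their range of 95300 to 106737. The macrophage sum of ND_B12 4 was 58.5 CPM, outside the other non-diabetic libraries (80.2 to 95.1) and within D_B12 (56.4 to 60.5). Its collecting duct sum, 482 (others 280 to 386), was also outside, and its endothelial sum, 349 (264 to 349), was not. Its thick ascending limb and distal convoluted tubule sum was 3226 (others 3842 to 4498). D_C 1 had a macrophage sum of 80.7 (other diabetic libraries 56.4 to 78.5) and a collecting duct sum of 365 (344 to 647). The podocyte marker sum was 322 CPM in D_C 3, against 352 to 356.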

How the results depend on the processing

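Tcn2 was lower in the diabetic kidneys under every alternative run, and its average call was lost only with the label date as a covariate. The counts of members called were 1 without B12, 1 with B12 and 2 on average. DESeq2 gave 2, 2 and 2, and leaving out both D_C 1 and ND_B12 4 gave 2, 1 and 2 and 1 member transcript on average. The label date as a covariate gave 0, 0 and 0. Compared groups alone gave 0 without B12, and upper-quartile normalization gave 0 with B12 (Tcn2 edgeR adjusted p = 0.0612). Leaving out single libraries gave 0 to 2 without B12, 0 to 2 with B12, 1 to 4 on average and 0 to 1 member transcripts on average; B12 comparisons stayed at 0 throughout. Among all genes the average between genotypes called 767, against 1837 by DESeq2, 427 with no count filter, 2531 without both libraries and 0 with the date. The comparison without B12 called 423, against 1637 by DESeq2 and 2127 without both libraries. With B12 the numbers were 209, against 1189 by DESeq2 and 695 without both libraries. The cause was not tested.

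With the replicate number as a block, the count with B12 was 0 (Tcn2 edgeR adjusted p = 0.0574) and the other counts of members were as before. The numbers share only a name: over 24 same-numbered pairs the correlation of deviations was -0.18 to 0.17, with 3 over 0.1. The block gave 478 genes in the average between genotypes and 147 for the difference between B12 effects, where the fit without it gave 0.

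No called value changed its direction; 12 uncalled ones did, and 28 more on leaving out single libraries. With upper-quartile normalization the Tcn2 difference between B12 effects was 0.034. With the date, Cubn without B12 was -0.10, and the average B12 effect was -0.15 for Cubn and -0.069 for Lrp2, and Dab2 with B12 in diabetic kidneys was -0.037. Without both D_C 1 and ND_B12 4, the genotype difference without B12 was 0.026 for Lrp2, 0.035 for Amn and 0.030 for Cd320, Cubn was 0.049 on average between genotypes and -0.028 for B12, and the differences between B12 effects were 0.018 for Tcn2 and 0.0050 for Dab2.

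Leaving out single libraries, log2 fold changes for B12 in diabetic kidneys ran from -0.20 to 0.024 for Cubn, -0.16 to 0.10 for Amn, -0.15 to 0.11 for Lrp2 and -0.059 to 0.079 for Dab2, and for B12 in non-diabetic kidneys from -0.030 to 0.013 for Amn. Between genotypes without B12 they ran from -0.23 to 0.027 for Amn, -0.20 to 0.058 for Lrp2 and -0.046 to 0.052 for Cd320, and on average from -0.10 to 0.013 for Cubn. The difference between B12 effects ran from -0.15 to 0.11 for Amn, -0.13 to 0.0047 for Dab2 and -0.044 to 0.036 for Tcn2, and the average B12 effect from -0.087 to 0.043 for Amn.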
